A study of Bos taurus with 24 samples.

Results

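Of 24 arrays of cattle muscle, 12 came from gluteus medius biopsies of freely fed cows, and the groups compared here were chosen by the measured level of ADIPOQ on these 12 arrays. ADIPOQ is the gene for adiponectin, a hormone made by fat cells. The 6 biopsies with the highest ADIPOQ are called fat-rich and the 6 with the lowest are called lean. The animals were 12 crossbred beef cows out of a trial of 121, 6 with the highest and 6 with the lowest weight gain during free feeding. Each cow was biopsied with a needle on day 105 of a 112-day period of restricted feed (120 kcal of metabolisable energy per kg of metabolic body weight) and again on day 49 of a later 112 days in which feed was freely offered. Biopsies carry only a number in the labels, and biopsy 2 was read as the freely fed one because it comes later in the protocol. All 12 cows were on the same feed at each biopsy, and total RNA from the whole biopsy was hybridised to Affymetrix arrays. The fat-rich group held 2 high gain cows (cows 4 and 2) and 4 low gain cows (cows 6, 2, 3 and 1), numbered within each gain class. The lean group held 4 high gain cows (cows 6, 3, 1 and 5) and 2 low gain cows (cows 4 and 5).

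Fat cells lie between the bundles of muscle fibres, where they make up marbling fat. They store fatty acids as triglyceride in a lipid droplet coated with perilipin and CIDE proteins, and they release the fatty acids by lipolysis. In cattle, fat tissue is the main site of new fatty acid synthesis, with acetate as the chief carbon source, and the enzymes for it are induced by feeding and by insulin.

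The values were on a log scale taken as log2, so that a difference of 1 is a doubling. ADIPOQ ran from 18.17 in high gain cow 4 through 15.91, 14.81, 13.60 and 11.78 in low gain cows 6, 2, 3 and 1 to 11.33 in high gain cow 2. In the lean biopsies it ran from 10.77 in high gain cow 6 through 10.30, 10.28, 9.50 and 8.89 to 8.37 in high gain cow 5. The split therefore fell between 11.33, in a fat-rich biopsy, and 10.77, in a lean one, a gap smaller than several others in the ranking. These levels formed the groups, and every other gene was measured on the same arrays, so all fat-rich against lean values at biopsy 2 are a description with no test. In RNA from a whole biopsy, fewer cells of a type and less RNA per cell cannot be told apart.

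The other fat cell markers were also higher in the fat-rich biopsies. PLIN1, which encodes the perilipin that coats the fat cell's droplet, had a lowest value of 9.43, a median of 11.86 and a highest value of 16.86 in fat-rich biopsies, against 8.14, 8.79 and 9.56 in lean ones. FABP4, the fat cell's fatty acid carrier, had 11.87, 15.12 and 19.30 in fat-rich biopsies, against 7.09, 9.37 and 11.21 in lean ones. The 6 highest FABP4 values were all in the fat-rich group, whereas for PLIN1 5 of 6 were, because high gain cow 6 (9.56, lean) lay above high gain cow 2 (9.43, fat-rich). The markers of muscle fibres were at the top of the scale in both groups: ACTA1, skeletal muscle actin, and TTN, titin, stood at the upper limit of 19.93 on all 12 arrays, so that a lower share of muscle could not be seen in them. High gain cow 4's biopsy stood apart, with a median correlation of 0.905 with the other biopsy 2 arrays, against 0.963 to 0.982 for the others, and it had the one CKM (muscle creatine kinase) value below the limit, 19.22.

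Of 14197 genes, 67 were at least 1 log2 unit higher on average in the fat-rich biopsies with no overlap between the 6 and the 6 values (0.472 percent of genes). No gene was lower by that measure (0 percent). Without the condition on overlap, 245 genes were higher (1.73 percent) and 37 lower (0.261 percent) by at least 1, and the median difference over all genes was -0.02. Since ADIPOQ formed the groups, these counts are given as background for the genes below. Leaving out the 3 biopsies with the highest ADIPOQ, which left 3 fat-rich against 6 lean biopsies, gave 21 genes (0.148 percent), 20 of which were among the 67. Dropping single cows gave 49 (high gain cow 4) to 123 genes (low gain cow 1).

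**Figure D1:**
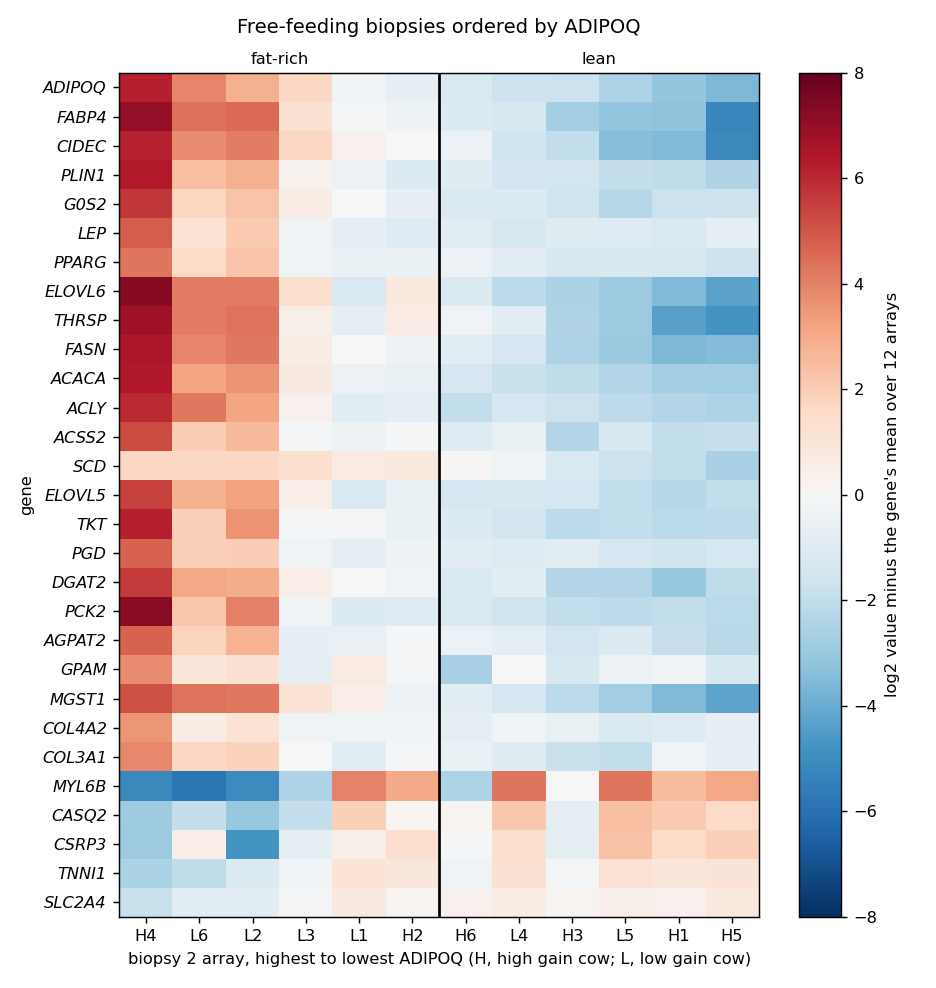
Heat map of 29 genes (down) on the 12 biopsy 2 arrays (across, highest to lowest ADIPOQ, 6 fat-rich left of the line and 6 lean right of it), coloured by the log2 value minus the gene's mean over the 12 arrays. High gain cow 4 and low gain cows 6 and 2 carry the deepest red in the lipid genes, and MYL6B, CASQ2 and TNNI1 run the other way, with low values in those 3 biopsies.

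The genes that define fat cells went together. Of 23 symbols listed for fat cell identity beside ADIPOQ, TUSC5 is an older name of TRARG1, which was measured. The other 22 were on the array and 19 passed the filter on dim genes (ADRB3, CEBPA and PNPLA3 did not). Their median difference was 1.70, and 13 of 19 were higher by at least 1, with 5 free of overlap. The median was 1.05 without high gain cow 4 and 0.50 without the 3 highest biopsies. CIDEC, which enlarges the fat cell's single droplet by fusion, had 13.40, 16.09 and 19.54 (lowest, median, highest) in fat-rich biopsies, against 8.24, 10.68 and 12.89 in lean ones, a difference of means of 5.37. PPARG, the master transcription factor of fat cell formation, had 7.95, 9.12 and 12.78 in fat-rich biopsies, against 6.86, 7.25 and 8.06 in lean ones. Its groups overlapped slightly and their means differed by 2.25.

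Less familiar fat cell genes were among the 5 free of overlap. TRARG1, a partner of the insulin-regulated glucose transporter, was 2.57 higher, ADIG (adipogenin), a small membrane protein of droplets, 2.32 higher and LGALS12, a galectin of fat cell droplets, 1.47 higher in fat-rich biopsies. By contrast CFD, which encodes adipsin, had 7.36, 8.0 and 9.15 in fat-rich biopsies, against 7.26, 7.88 and 8.14 in lean ones. This marker from mouse fat did not separate the groups, but it was dim, near the array medians of 7.79 to 7.85. A difference in CFD could therefore have gone unseen. LEP, the gene for leptin, had 6.45, 7.90 and 12.32 in fat-rich biopsies, against 6.2, 6.46 and 6.65 in lean ones. The LEP difference of 2.05 was 1.28 without high gain cow 4 and 0.37 without the 3 highest biopsies, so that most of it came from those 3. SLC2A4, the insulin-regulated glucose transporter that muscle and fat share, was the lowest member at -0.91.

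**Figure D2:**
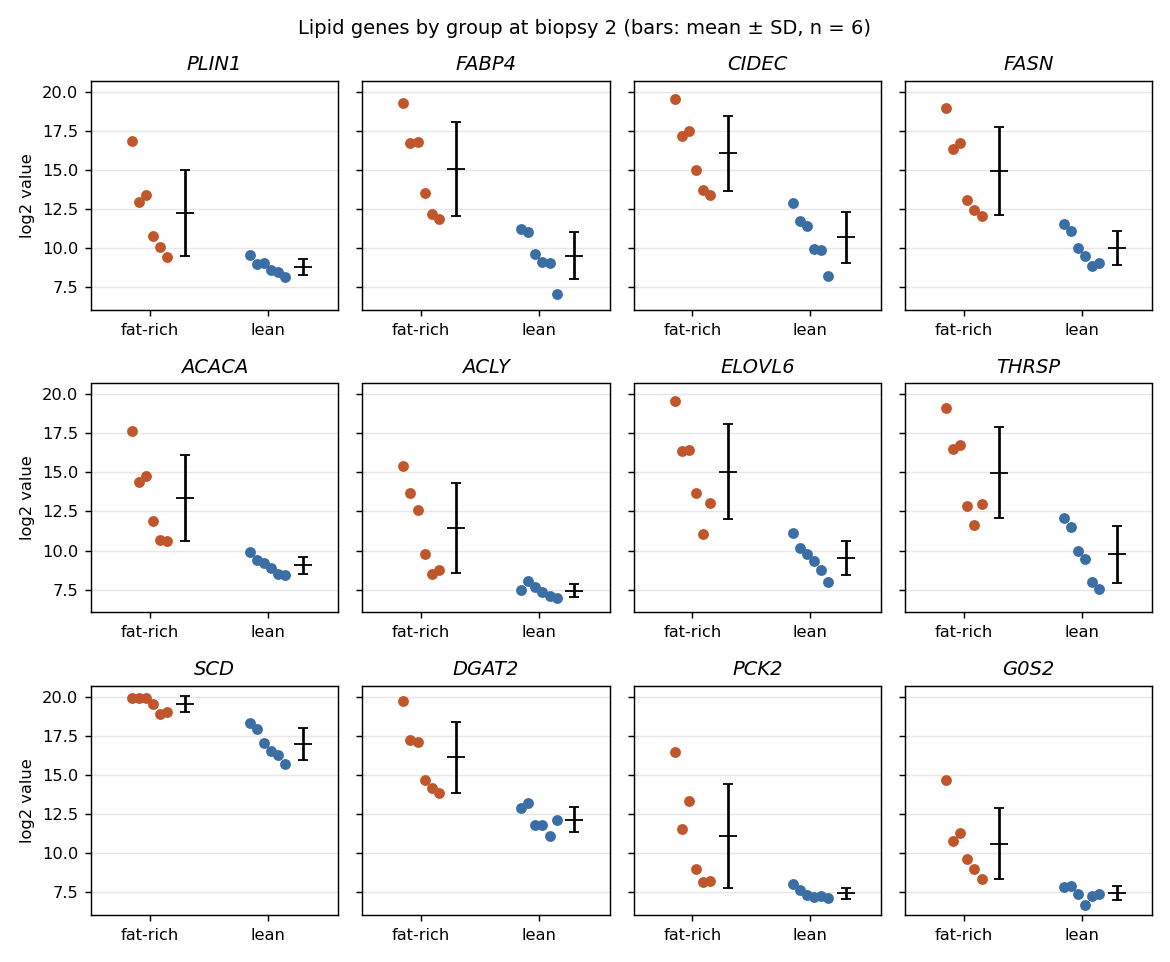
Log2 values of 12 lipid genes at biopsy 2, each point 1 biopsy, with 6 fat-rich biopsies left and 6 lean biopsies right in each panel and mean ± SD beside them (n = 6 each). The fat-rich values are spread widely, with FASN at 12.04 to 18.96 against 8.88 to 11.57 in lean biopsies, whereas SCD is pressed against the upper limit of 19.93.

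Fatty acid synthesis had the largest median difference of the 26 gene lists, 2.58 over 17 measured genes, with 12 of 17 higher by at least 1 and 8 free of overlap. The median was 2.23 without high gain cow 4 and 1.12 without the 3 highest biopsies. The pathway starts with carbon supply. ACSS2, which activates acetate, had 12.55, 13.93 and 18.18 in fat-rich biopsies, against 10.61, 11.41 and 12.38 in lean ones. ACLY, which makes the same acetyl-CoA from citrate and is held to be minor in ruminant fat, had 8.51, 11.17 and 15.42 in fat-rich biopsies, against 6.95, 7.41 and 8.08 in lean ones. The means differed by 3.04 for ACSS2 and by 4.01 for ACLY, and SLC25A1, the citrate exporter of mitochondria, was 2.53 higher with groups that overlapped.

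The committed steps were higher as well. ACACA, acetyl-CoA carboxylase, had 10.63, 13.15 and 17.63 in fat-rich biopsies, against 8.43, 9.03 and 9.88 in lean ones. FASN, fatty acid synthase, had 12.04, 14.71 and 18.96 in fat-rich biopsies, against 8.88, 9.76 and 11.57 in lean ones. THRSP (Spot 14), a regulator of lipid synthesis, was 5.21 higher on average, with a lowest fat-rich value (11.60) below the highest lean one (12.07). Its paralogue MID1IP1 differed by 0.55 with wide overlap, and by 0.20 without high gain cow 4.

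Elongation and desaturation split by enzyme. ELOVL6, which extends palmitate to stearate, had 11.06, 15.04 and 19.55 in fat-rich biopsies, against 8.02, 9.56 and 11.11 in lean ones, a difference of 5.51 with a slight overlap. ELOVL5, an elongase of polyunsaturated fatty acids, was 3.41 higher and HACD2, the dehydratase of the elongation cycle, 3.10 higher, both without overlap. SCD, stearoyl-CoA desaturase, which makes oleate, was 2.58 higher without overlap, but 3 fat-rich values were at the upper limit, so this difference is a lower bound. The desaturases of polyunsaturated fatty acids showed no such rise, since FADS1 differed by -0.15 and FADS2 by -0.25. FADS1 was dim, at 6.98 to 8.12 over the biopsy 2 arrays, near the array medians of 7.79 to 7.85. A difference in FADS1 could therefore have gone unseen.

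The enzymes that supply NADPH for synthesis were also higher. IDH1, cytosolic isocitrate dehydrogenase, had 11.52, 13.54 and 17.27 in fat-rich biopsies, against 10.28, 10.70 and 11.46 in lean ones. PGD of the pentose phosphate pathway was 2.39 higher, and TKT and TALDO1, which recycle its sugars, were 3.63 and 2.36 higher, all 3 without overlap. ME1, malic enzyme, was 1.04 higher with overlap.

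Triglyceride assembly was less uniform, with a median of 0.37 over 16 genes, 6 of them higher by at least 1 and 2 free of overlap, and it was 0.16 without the 3 highest biopsies. DGAT2, which adds the last fatty acid, had 13.85, 15.88 and 19.70 in fat-rich biopsies, against 11.07, 11.94 and 13.23 in lean ones. DGAT1, which catalyses the same step, differed by 0.20, but it was dim, at 7.42 to 8.74 over the biopsy 2 arrays. A difference in DGAT1 could therefore have gone unseen. PCK2, the mitochondrial form of the enzyme that supplies glycerol phosphate, had 8.17, 10.25 and 16.47 in fat-rich biopsies, against 7.15, 7.30 and 8.05 in lean ones. Its cytosolic counterpart PCK1 was dim, at 7.32 to 11.28 in fat-rich and 7.14 to 7.38 in lean biopsies, with a difference of 1.20 that was 0.63 without high gain cow 4. AGPAT2 and GPAM, the acyltransferases of the first steps, were 2.61 and 1.93 higher with overlap.

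Of 19 measured genes for lipid droplets and lipolysis, 6 were higher by at least 1 and 2 free of overlap. Their median of 0.60 was 0.27 without high gain cow 4 and 0.09 without the 3 highest biopsies. G0S2, an inhibitor of the first lipase, had 8.36, 10.18 and 14.66 in fat-rich biopsies, against 6.71, 7.39 and 7.92 in lean ones. That lipase, PNPLA2, had 13.10, 13.93 and 16.56 in fat-rich biopsies, against 12.91, 13.56 and 13.93 in lean ones, with a difference of 0.84 that was 0.39 without high gain cow 4. LIPE, hormone-sensitive lipase, was 1.62 higher and PLIN4 1.47 higher, each with overlap, and PLIN2, the droplet coat found in many cell types, differed by 0.66. Without high gain cow 4 these differences were 1.05 for LIPE, 0.93 for PLIN4 and 0.27 for PLIN2.

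Among 15 measured genes for fatty acid uptake and binding, the median was 0.28 (0.15 without high gain cow 4) and 3 were free of overlap with a difference of at least 1. Beside FABP4 these were CD36, a fatty acid translocase shared with muscle, at 1.26, and CAVIN2, a coat protein of caveolae, at 1.28. FABP3, the carrier of oxidative muscle fibres, went the other way with 13.14, 15.03 and 18.43 in fat-rich biopsies, against 14.15, 17.18 and 18.63 in lean ones, and its difference of -1.0 was -0.48 without high gain cow 4 and 0.48 without the 3 highest biopsies. Of 14 measured sterol synthesis genes, INSIG1, the feedback regulator of that pathway, was 1.43 higher and the single member free of overlap, with a list median of 0.53. Without high gain cow 4 INSIG1 was 0.92 higher and the list median was 0.33. RBP4, the retinol carrier, stood out among 13 adipokine genes (median 0.12) at 8.83, 11.43 and 15.81 in fat-rich biopsies, against 7.50, 7.59 and 8.97 in lean ones.

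Genes outside the lipid pathways were also high. MGST1, a microsomal glutathione transferase, had 14.40, 17.51 and 19.93 in fat-rich biopsies, against 10.60, 12.40 and 13.98 in lean ones, a difference of at least 4.95 without overlap, since the value of high gain cow 4 was at the upper limit. SULT1A1, a sulfotransferase, was 3.01 higher and PDE3B, the phosphodiesterase through which insulin restrains lipolysis, 2.72 higher, both without overlap. CHRDL1, a secreted inhibitor of bone morphogenetic proteins, was 2.69 higher without overlap. CLU, clusterin, a secreted chaperone, was 4.14 higher, with 1 fat-rich value (13.56) below the highest lean one (13.74).

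Some genes of other cell types were also higher. The matrix list had a median of 0.73 over 26 genes, 10 of them higher by at least 1 and 1, COL4A2 of basement membranes, free of overlap. Without high gain cow 4 the median was 0.42 and COL4A2 was 0.93 higher instead of 1.49, and the median was 0.15 without the 3 highest biopsies. The list's mean level per biopsy was 8.99 to 11.39 in fat-rich and 8.89 to 9.28 in lean biopsies. COL3A1, a collagen of connective tissue, had 9.96, 11.69 and 14.71 in fat-rich biopsies, against 8.90, 10.03 and 10.60 in lean ones. Endothelial genes had a median of 0.35, with all 17 measured ones above 0, and mean levels of 9.59 to 10.44 in fat-rich and 9.29 to 9.55 in lean biopsies. The list of macrophage and leukocyte genes had a median of 0.16 over 20 genes, with no member higher by at least 1. Its mean levels were 7.59 to 8.19 in fat-rich and 7.48 to 7.90 in lean biopsies. Red cell genes had mean levels of 7.30 to 8.22 in fat-rich and 7.24 to 7.67 in lean biopsies. Their median was 0.13 over 7 genes, and -0.02 without high gain cow 4. The differences ran from -0.12 to 1.44, the highest being that of HBB. The part of these cell types in the differences above was not tested.

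**Figure D3:**
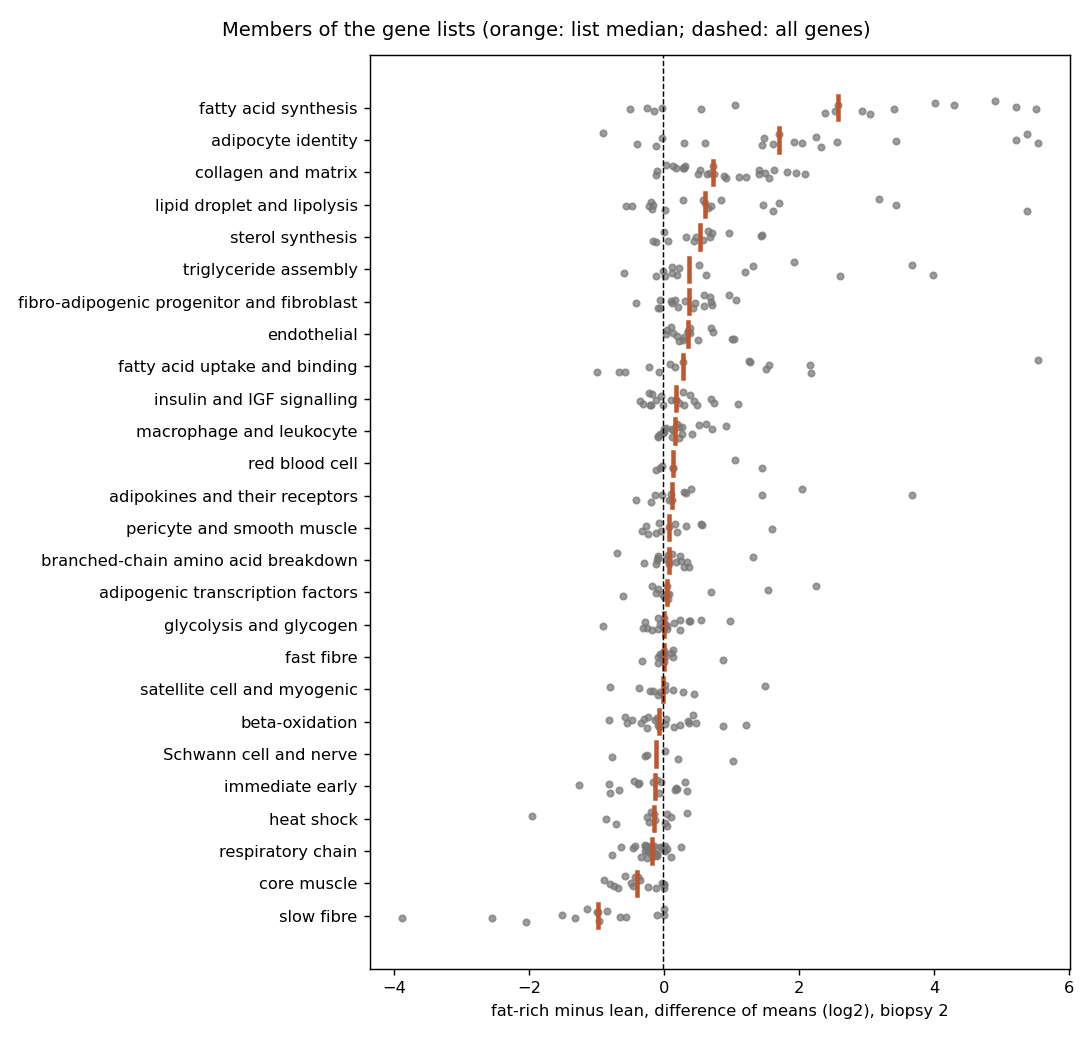
Difference of group means, fat-rich minus lean, at biopsy 2 (log2) for each measured member of 26 gene lists, 1 grey point a gene, with the list median as an orange bar and the median of all genes (-0.02) as a dashed line. Fatty acid synthesis (median 2.58) and fat cell identity (1.70) stand to the right, and slow fibre genes (-0.97) stand to the left.

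Among muscle genes those of slow fibres were lower in fat-rich biopsies. The slow fibre list had a median of -0.97 over 15 genes, 6 of them lower by at least 1 and none free of overlap. The fast fibre list had a median of -0.01 over 15 genes. In each of these lists 2 genes were at the upper limit on all 12 arrays, where no difference could be seen. MYL6B, a slow muscle myosin light chain, had 9.64, 11.73 and 19.45 in fat-rich biopsies, against 13.01, 18.32 and 19.82 in lean ones. It was low in the 4 biopsies with the highest ADIPOQ (9.64 to 13.03) and high in the other fat-rich ones, and of the lean biopsies high gain cow 6 was as low, at 13.01. CASQ2, a calcium store protein of slow fibres, differed by -2.54 and CSRP3, a muscle LIM protein, by -2.04. Without the 3 highest biopsies the list median was -0.0018 and MYL6B differed by -0.44, so these values rested on those 3 arrays, while CASQ2 still differed by -1.22.

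Core muscle genes had a median of -0.41 over 16 genes, with 3 of them at the upper limit on all 12 arrays. The median was -0.17 without high gain cow 4 and -0.01 without the 3 highest biopsies. MYOM1 of the sarcomere's M band had 15.91, 17.84 and 18.51 in fat-rich biopsies, against 17.99, 18.41 and 18.86 in lean ones, a difference of -0.89 that was -0.56 without high gain cow 4. Lists for beta-oxidation (-0.08), the respiratory chain (-0.18) and glycolysis (0.00) had medians near that of all genes. Of the 22 glycolysis genes, 3 stood at the upper limit on all 12 arrays, where no difference could be seen. Medians also lay near 0 for adipogenic transcription factors (0.04), insulin and IGF signalling (0.18), breakdown of branched-chain amino acids (0.08), pericytes (0.08), satellite cells (-0.02), Schwann cells (-0.12) and immediate early genes (-0.13), and that of fibroblast genes was 0.37. Of these lists EBF1, an adipogenic transcription factor, was 1.53 higher and IGFBP4, a binding protein of insulin-like growth factors, 1.09 higher without overlap. HSPB7, a small heat shock protein of muscle, differed by -1.96, and the list of heat shock genes had a median of -0.14. Of 18 genes lower without overlap at any size (0.127 percent of genes, against 88 or 0.62 percent higher), 2 chosen after their values were seen were NCAM1, a neural and myogenic adhesion molecule, at -0.78 and PER2, a circadian clock gene, at -0.51.

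BOLA-DQB1, a gene of the bovine class II histocompatibility complex, differed by -2.18, with 9.66, 10.75 and 13.06 in fat-rich biopsies, against 11.996, 13.37 and 15.18 in lean ones. At biopsy 1 its means were 11.37 in cows of the fat-rich group and 13.95 in cows of the lean group, a difference that did not pass the test, with an adjusted p of 0.989 (limma, Benjamini-Hochberg adjustment over 14198 genes).

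The restricted-feed biopsies were not used to form the groups and allowed a test of which genes go with ADIPOQ. The slope of each gene on ADIPOQ was fitted with limma over 11 of the 12 biopsy 1 arrays. The array of low gain cow 4 was left out. It had low ACTA1 (14.51, against 19.75 to 19.81 on the others) and low CKM (14.60, against 19.66 to 19.81). Its ADIPOQ was the highest, 17.98, against 8.20 to 14.89. Not all muscle markers were low on it, since TTN was at the upper limit as on the others. MYH1 was 18.50 on it, against 17.51 to 19.81 on the others. ADIPOQ slopes passed an adjusted p of 0.05 in the positive direction for 58 of 14197 genes (0.409 percent) and in the negative direction for 7 (0.0493 percent). Leaving out 1 more cow moved the count of 58 to as few as 14, when high gain cow 1 was dropped, and as many as 128, when high gain cow 5 was. Of the 67 genes higher at biopsy 2, 12 were among the 58, which is 17.9 percent of the 67 and 20.7 percent of the 58. Those 12 were ACER3, ANXA5, CHRDL1, CIDEC, FABP4, GPM6B, HACD2, MAL2, MGST1, NID2, PDE3B and RAB3B. Of the 67, 64 had a slope above 0 (44.9 percent of all genes did), and their median slope was 0.21, against -0.01 over all genes.

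FABP4 and CIDEC had the steepest slopes of the genes that passed. CIDEC rose by 0.98 ± 0.07 log2 units per unit of ADIPOQ (SE, adjusted p = 4.9e-05, limma) and lay between 8.86 and 15.23 on the 11 arrays. FABP4 rose by 1.18 ± 0.11 (adjusted p = 0.000415, limma), PLIN1 by 0.60 ± 0.06 (adjusted p = 0.000739, limma) and RBP4 by 0.69 ± 0.09 (adjusted p = 0.0077, limma). Of the 19 fat cell identity genes 5 passed, namely CIDEC, FABP4, PLIN1, LIPE and KLB. LIPE, hormone-sensitive lipase, rose by 0.21 ± 0.03 (adjusted p = 0.0162, limma) and KLB, a co-receptor of fibroblast growth factor signalling, by 0.20 ± 0.03 (adjusted p = 0.0208, limma). CHRDL1 rose by 0.45 ± 0.05 (adjusted p = 0.000681, limma) and MAL2, a membrane trafficking protein, by 0.28 ± 0.03 (adjusted p = 0.00071, limma).

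Few genes of lipid synthesis passed at biopsy 1 on the 11 arrays, and more passed when low gain cow 4 was included. Of 17 fatty acid synthesis genes 1 passed, ELOVL6, at 0.48 ± 0.06 (adjusted p = 0.00201, limma), although the list's median slope was 0.13. FASN had a slope of 0.24 ± 0.10 (adjusted p = 0.300, limma) and lay between 8.56 and 11.66. ACACA had 0.24 ± 0.07 (adjusted p = 0.114, limma), ACLY 0.08 ± 0.04 (adjusted p = 0.370, limma) and ACSS2 0.13 ± 0.07 (adjusted p = 0.396, limma). No triglyceride assembly gene of 16 passed, with DGAT2 at 0.49 ± 0.12 (adjusted p = 0.0767, limma) and PCK2 at 0.12 ± 0.03 (adjusted p = 0.130, limma). With all 12 arrays 10 of 17 fatty acid synthesis genes and 4 of 16 triglyceride assembly genes had a positive slope that passed. There the limma adjusted p was 0.0106 for FASN, 0.00563 for ACACA, 0.0135 for ACLY, 0.0145 for ACSS2, 0.00165 for DGAT2 and 0.0031 for PCK2. Of 21 alternatives to the 11-array fit, FASN, ACACA, ACLY and ACSS2 passed only in this 1, which included low gain cow 4. DGAT2, SCD and THRSP passed in 3 each and IDH1 in 2, so their calls did not depend on that array alone. PCK2 was not followed through the alternatives.

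Some matrix genes also rose with ADIPOQ at biopsy 1, with 4 of 26 past the threshold and a median slope of 0.29. COL3A1 rose by 0.48 ± 0.07 (adjusted p = 0.0103, limma), and TIMP2, a protease inhibitor of the matrix, by 0.29 ± 0.04 (adjusted p = 0.0161, limma). MMP14 and COL6A1 passed as well. Their part in the slopes of the fat cell genes was not tested. None of the 15 slow fibre genes passed, their median slope was 0.06, and MYL6B had 0.28 ± 0.25 (adjusted p = 0.653, limma), where the same gene was lower in the fat-rich biopsies at biopsy 2. With low gain cow 4 included, the slow fibre list had a median slope of -0.46 and 4 genes that fell. Among the 7 genes that fell were MYLK2, the kinase of skeletal myosin light chains, at -0.27 ± 0.05 (adjusted p = 0.041, limma), and CAPN3, a muscle calpain, at -0.19 ± 0.04 (adjusted p = 0.0422, limma). MYLK2 lost its call in 10 of 21 alternatives and CAPN3 in 13 of 21, and the count of 7 was 0 when high gain cow 1 or low gain cow 2 was dropped. With low gain cow 4 included, 1348 genes rose (9.49 percent) and 1105 fell (7.78 percent), and all 65 calls of the 11-array fit were kept.

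**Figure D4:**
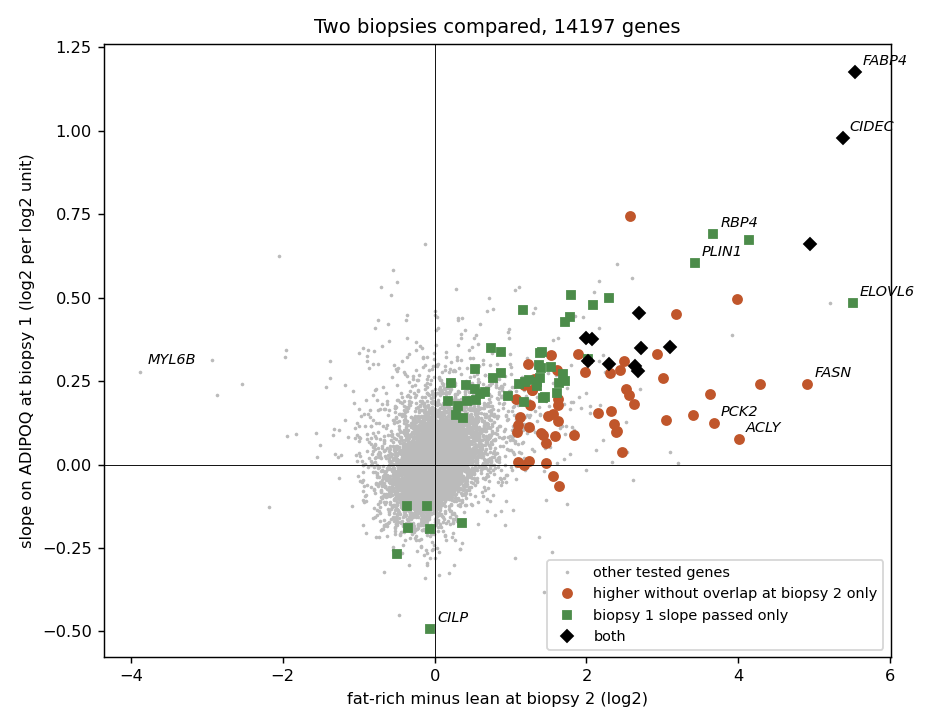
Slope of each gene on ADIPOQ over 11 biopsy 1 arrays (vertical, log2 per log2 unit) against the fat-rich minus lean difference at biopsy 2 (horizontal, log2), 1 point a gene. CIDEC and FABP4 are high on both axes, while FASN, ACLY and PCK2 lie far right with slopes of 0.24, 0.08 and 0.12.

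Arrays with a like ADIPOQ can be set side by side, with the limit that the 2 biopsies appear to have been normalized separately and that each value is 1 biopsy. At biopsy 2 low gain cow 2, with ADIPOQ at 14.81, had CIDEC at 17.49 and PLIN1 at 13.38, and at biopsy 1 high gain cow 2, with ADIPOQ at 14.89, had CIDEC at 15.23 and PLIN1 at 12.62. FASN was 16.70 in that biopsy 2 array and 10.23 in that biopsy 1 array. ACACA was 14.79 at biopsy 2 and 9.54 at biopsy 1, and PCK2 was 13.30 at biopsy 2 and 7.27 at biopsy 1. At a lower ADIPOQ level the synthesis genes were closer, by an amount that depended on the biopsy 1 array chosen. Low gain cow 3 at biopsy 2 (ADIPOQ 13.60) had FASN at 13.06, ACACA at 11.92 and PCK2 at 8.98. Low gain cow 1 at biopsy 1 (ADIPOQ 13.69) had FASN at 11.66, ACACA at 10.28 and PCK2 at 6.64. Its FASN was the highest of the 11 biopsy 1 arrays in the slope fit. High gain cow 4 at biopsy 1 (ADIPOQ 13.47) had FASN at 9.41, ACACA at 8.997 and PCK2 at 6.47. At the top of the range, FASN was 18.96 and PCK2 16.47 in high gain cow 4 at biopsy 2 (ADIPOQ 18.17), and 16.46 and 8.35 in low gain cow 4 at biopsy 1 (ADIPOQ 17.98). The difference of slopes between the biopsies was not tested.

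**Figure D5:**
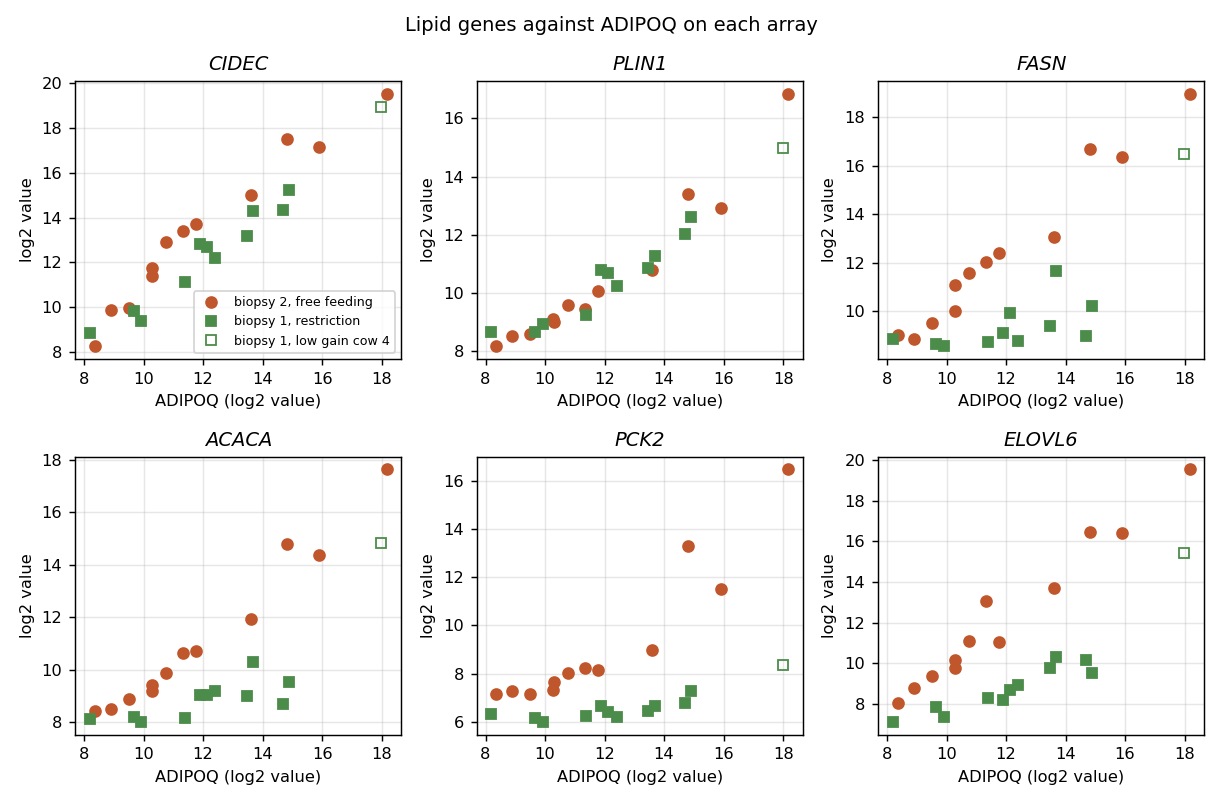
Values of 6 lipid genes against ADIPOQ on each array (both axes log2), with 12 biopsy 2 arrays as orange circles, 11 biopsy 1 arrays as filled green squares and low gain cow 4 at biopsy 1 as an open square. PLIN1 values of both biopsies lie close to one band, except for the highest ADIPOQ values, where PLIN1 is 16.86 at biopsy 2 and 14.995 at biopsy 1. FASN, ACACA, PCK2 and ELOVL6 at biopsy 1 lie at or below the biopsy 2 points at a like ADIPOQ level, and CIDEC lies below them on most arrays.

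No difference at biopsy 1 was detected in fat cell markers between the cows of the 2 groups. ADIPOQ at biopsy 1 was 12.62 ± 1.82 in the cows of the fat-rich group, against 12.43 ± 3.5 in the cows of the lean group (SD, n = 6 each; difference 0.19, two-sided exact permutation p = 0.911, adjusted over 3 genes 0.911). With 6 against 6 the smallest p possible was 0.00216. PLIN1 differed by 0.14 (exact permutation p = 0.903) and FABP4 by 0.42 (exact permutation p = 0.831). Without low gain cow 4, whose biopsy was the highest of the lean group's cows, ADIPOQ differed by 1.30 (exact permutation p = 0.342).

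No relation between a cow's ADIPOQ levels at the 2 biopsies was detected. Pearson's r was -0.05 (permutation p = 0.882, adjusted 0.996) and Spearman's rho -0.01 (permutation p = 0.972, adjusted 0.996) over 12 cows, and r was -0.01 without the 2 cows farthest from the median. High gain cow 4 ranked 1 at biopsy 2 and 5 at biopsy 1, and low gain cow 4 ranked 8 at biopsy 2 and 1 at biopsy 1. Over all genes, 0 of 14198 passed the test between the same cows at biopsy 1 (0 percent at an adjusted p of 0.05, limma), with 367 at an unadjusted p under 0.05. In simulated data this test recovered 10.4 percent of differences of 0.5, 56.7 percent of differences of 1 and 93.9 percent of differences of 2. Differences of 1, a doubling, or less between the cows could therefore have been missed. These rates are averages over genes drawn at random. For genes as variable as ADIPOQ at biopsy 1 (SD 1.82 and 3.5 in the 2 groups) recovery was not assessed, and larger differences could have been missed. The gain classes fell unevenly into the groups, with 2 high gain cows of 6 in the fat-rich group and 4 of 6 in the lean group, a difference that did not pass Fisher's exact test (two-sided p = 0.567).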

How the data were processed

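The values were deposited by the authors as one table on a log scale, taken here as log2 from their range because the base is not stated. The submitters' processing notes name 2 programs, Affymetrix Expression Console and Transcriptome Analysis Console. How the arrays were normalized is not given in the sources used here. Values stopped at 19.8071 at biopsy 1 and at 19.9315 at biopsy 2, so the sets appear to have been normalized separately. No gene's level was tested between them, and only the correlation of ADIPOQ across cows used both. Between 48 and 58 features of a biopsy 2 array lay within 0.05 of the limit and were treated as bounds. Array medians were 7.79 to 7.85 at biopsy 2. An array's precision is limited by the number of arrays.

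Of 26773 features 18790 had 1 gene in the platform annotation, 385 several and 7598 none; Entrez numbers of 18003 were matched to RefSeq names with no symbol changed. The brightest feature stood for each of 320 genes with several. Genes whose mean over the 24 arrays was under the 25th percentile (6.76) were left out, which left 14198 of 18444 genes, or 14197 beside ADIPOQ.

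The groups, the members and the 26 lists were chosen with earlier results of these data known. Most genes were named by a rule: those with the largest differences free of overlap, the 4 largest of each list, members of the lipid and muscle lists, and the smallest p at biopsy 1. Others, among them CLU, TALDO1, COL4A2 and TIMP2, were named outside that rule. Biopsy 1 was tested with limma 3.58.1 in R 4.3.3 (eBayes with trend, Benjamini-Hochberg adjustment, threshold 0.05), checked on simulated data with 200 altered genes. Exact permutation, Fisher and correlation tests (100000 resamples) used scipy 1.17.1. The labels give 12 cows with 1 array at each biopsy, so the p-values rest on the spread between single biopsies of different cows. Differences between cows and between places within a muscle cannot be told apart in that spread. Alternatives were quantile normalization, median centring, no filter, mean of features, other arrays, other covariates and each cow left out.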

Additional observations from a re-analysis of the deposited data

Results flagged for a closer look

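In 214 sets of 6 values (each named gene in the fat-rich and the lean biopsies), 16 held a value far from the rest of its set. The cut-off flags about 1 in 20 sets of independent, normally distributed values. These sets were cut by ADIPOQ rank and share the same arrays, so that rate is no measure of chance here. In 11 of these the biopsy of high gain cow 4, which had the highest ADIPOQ (18.17), stood apart in the fat-rich group. It was highest for CIDEA at 11.88 (next 8.69), EBF1 at 13.36 (11.10), ACSL1 at 18.54 (16.43), CAVIN2 at 13.74 (11.74), INSIG1 at 13.75 (11.40), KDR at 12.51 (10.62), PECAM1 at 12.79 (11.49) and ACER3 at 16.29 (11.74). It was lowest for CKM at 19.22 (next 19.93), COX8B at 12.47 (14.55) and CAPN3 at 14.91 (16.52). The other fat-rich CKM values all stood at the upper limit, so any single lower value would have been flagged. In the same group PER2 was lowest in low gain cow 6 at 7.70 (next 8.15).

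In the lean group EBF1 was lowest in low gain cow 5 at 9.03 (next 9.53), IDI1 lowest in high gain cow 5 at 9.80 (10.52), MYH1, a fast fibre myosin, lowest in low gain cow 4 at 11.94 (18.75) and CILP, a cartilage matrix protein, highest in high gain cow 6 at 11.67 (9.79).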

How the results depend on the processing

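No paired analysis was possible because the fat-rich and lean groups hold different cows. The count of 67 higher genes was 131 without the 2 biopsies next to the split, 35 at a difference of at least 2 and 21 without the 3 biopsies with the highest ADIPOQ (chosen after seeing the data). Leaving out each cow gave 49 (without high gain cow 4) to 123 (without low gain cow 1), with 109 when high gain cow 2 was dropped. The count of 0 lower genes was 3 without the 2 biopsies next to the split, 6 at a difference of at least 0.5, and 0 to 2 when a cow was left out. Of 58 genes rising with ADIPOQ at biopsy 1, counts were 1348 with all 12 arrays, 214 with the rank of ADIPOQ, 115 with PLIN1 in its place, and 14 (without high gain cow 1) to 128 (without high gain cow 5) when a cow was left out, with 17 when low gain cow 2, 24 when high gain cow 2 and 34 when low gain cow 1 was dropped. Of 7 falling genes, counts were 4 with quantile normalization, 4 with no filter, 4 with array weights, 42 with ranks, 1105 with all 12 arrays and 0 to 18 when a cow was left out. The causes were not tested beyond the change of arrays. The calls of CIDEC, FABP4, CHRDL1, MAL2, ELOVL6, PDE3B and RBP4 held in all 21 alternatives, and PLIN1's in the 20 that could include it; CAPN3 lost its call in 13, MMP14 in 13, CILP, MYLK2, GPM6B and RAB3B in 10 each, ANXA5 in 8 and MGST1 in 6. The count at biopsy 1 between the same cows was 0 in every alternative run. Pearson's r of ADIPOQ between biopsies was 0.078 without low gain cow 4 (permutation p = 0.826), a reversed sign. Features at the upper limit hide differences in the most abundant muscle genes.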
